A study of Mus musculus with 24 samples.

Results

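The nuclear genes for the subunits of mitochondrial complexes II to V, with cytochrome *c*, were examined in mouse *M. gastrocnemius* after 6 h of mild hypoxia. The genes were chosen by their names on the array, which gave 80 probes for 49 of its 34797 gene names. A probe counted as measured where its Cy5 signal averaged over 2 times the local background across all 24 arrays, and this held for 75 probes and 46 genes. *Cox6b2* (1.66 times the background), *Cox7b2* (1.08 times) and *Cox8c* (1.15 times) were not measured. The mice were male C57BL/6JOlaHsd animals that arrived at an age of 10 weeks and received a diet with 10% of its energy as fat for 3 weeks and then one with 40% for 6 weeks. All mice were fasted. The 12 Hypox mice breathed 12% oxygen and the 12 Norm mice 20.9% oxygen for 6 h. Each array was hybridised with muscle RNA of a single mouse labelled with Cy5 and with pooled RNA of the whole set labelled with Cy3, and levels are given as the log2 ratio of Cy5 over Cy3 after loess normalization within the array. The ratio is relative to the pool, so it compares mice for a given gene and not genes with each other. In whole muscle, less RNA per cell and fewer cells of a type cannot be told apart.

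Complex II oxidises succinate and passes its electrons to ubiquinone. Complex III moves them on to cytochrome *c*, complex IV hands them to oxygen, and complexes III and IV pump protons whose return through complex V, the ATP synthase, drives the making of ATP. Complex II is built from nuclear subunits alone, whereas III, IV and V join nuclear subunits to a few made from mitochondrial DNA. Several subunits of complex IV exist as pairs of genes, with a form that prevails in heart and skeletal muscle beside a form found in most tissues, and the membrane ring of ATP synthase has a single protein encoded by 3 genes.

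Every slide of the 6 used held 2 arrays of either group. The mean Cy5 signal of an array ranged from 58.3 to 1014, with the dimmest 4 arrays together on slide 1. The subunit genes were among the brightest on the array. Their signal was a median of 397 times the background (range 2.54 to 1239), against 6.69 times for all 11679 genes tested, and 71 of the 80 probes stood well above background on all 24 arrays. *Cox4i2* (2.77 times) and *Atp5s* (2.54 times) were the dim exceptions. Defining muscle genes were bright, with *Ckm* at 795 and *Acta1* at 2130 times the background. The lung marker *Sftpc* was well above background on 4 Hypox arrays and 0 Norm arrays, *Sftpb* on 3 and 0 and *Sftpa1* on 1 and 0, whereas *Scgb1a1* was so on 0 arrays.

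No member gene passed an adjusted P-value of 0.05 between Hypox and Norm (limma, Benjamini-Hochberg over all probes tested; smallest adjusted P-value 0.143). At the study's threshold, an unadjusted P-value under 0.05, 7 of the 46 genes differed. *Uqcrb*, *Uqcrh*, *Cox6c*, *Atp5j*, *Atp5j2* and *Atp5a1* were lower in Hypox and *Cox6b1* was higher. These 7 genes are 15.2% of those measured, and 13.9% of all genes tested passed the same threshold, so the share was near the background. By direction, 6 members (13%) were lower against 6.48% of all genes, and 1 was higher against 7.44% of all genes. After adjustment, 0.985% of all genes passed and 0 of the members. By probe, 11 of 75 passed the unadjusted threshold, 9 lower and 2 higher, against 14.1% of all 14312 probes, and 0 passed adjustment against 0.999%. With the slide as a block the share was no longer near the background: 13 members (28.3%) were lower against 7.69% of all genes, and 14 in all (30.4%) passed against 15.9%, while 0 passed adjustment. Those added by the block were *Atp5b*, *Atp5g1*, *Atp5g2*, *Cox7a2*, *Cox7b*, *Cox8b* and *Cycs*.

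**Figure D1:**
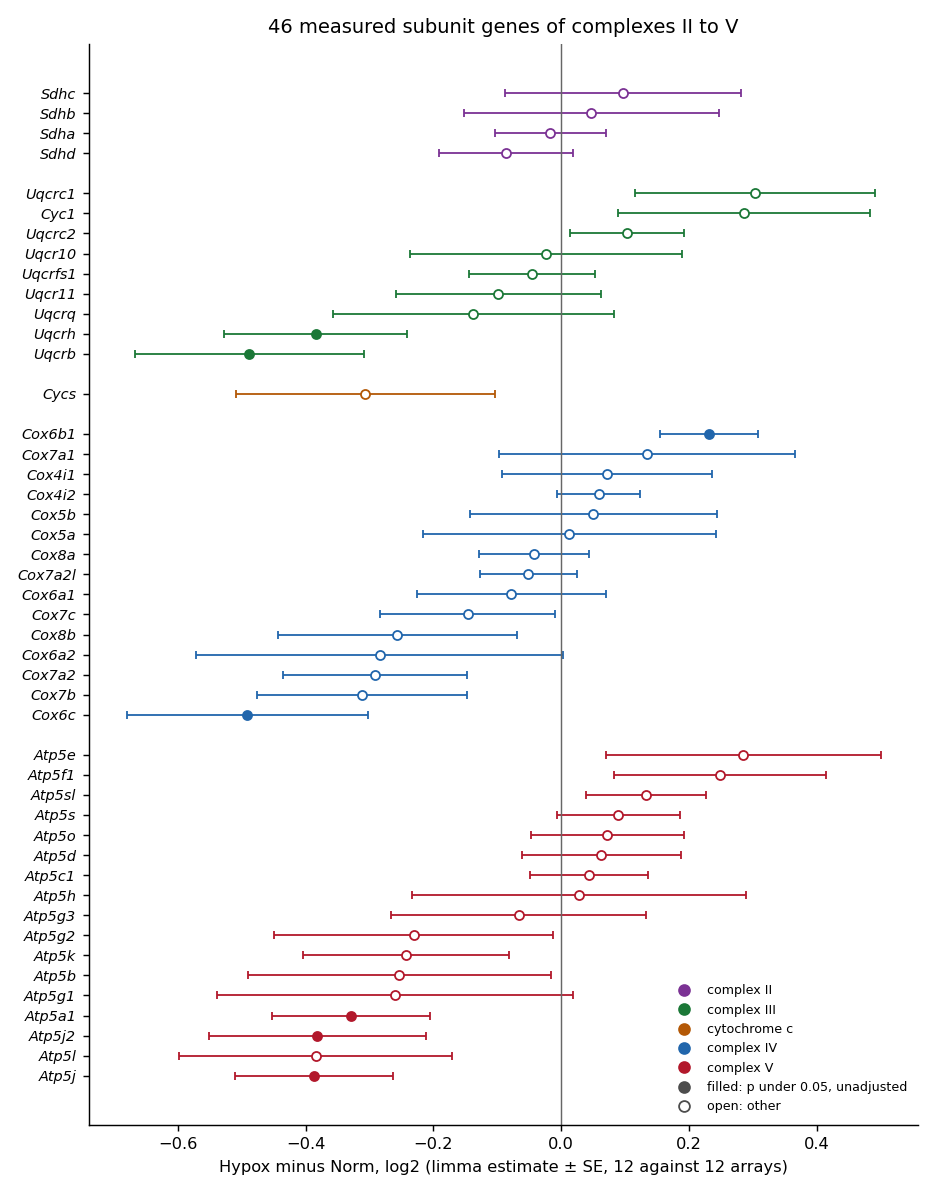
Hypox minus Norm on the log2 scale for the 46 measured genes, with points and bars for the limma estimate and its standard error over 12 against 12 arrays, ordered within each complex. Filled points, with an unadjusted P-value under 0.05, lie at the lower end of complexes III, IV and V, apart from *Cox6b1* at the upper end of complex IV.

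With loess, the direction went with brightness. Among the 23 members with a mean log2 intensity over 14, the median change was -0.23, and among the 272 other genes in that range it was -0.21, with 87.1% of them lower in Hypox. In that range 3 members (13%) passed the unadjusted threshold as lower, as did 15.4% of the other genes. Between 12 and 14, the median was -0.04 for 17 members and -0.05 for 786 other genes. Below 12 the medians of all genes were above 0, at 0.02 to 0.04. With the slide as a block, 9 of the 23 bright members (39.1%) and 32.7% of the other bright genes were lower at the unadjusted threshold. Other scalings weakened or turned this. The median of the other bright genes was 0.04 with the scanner's processed signals (42.6% lower), 0.02 with Cy5 alone (44.1% lower), 0.32 with the authors' values (9.56% lower) and 0.50 with median centring (4.04% lower), and that of the bright members was 0.01, 0.05, 0.30 and 0.48. With the processed signals, 0 bright members were lower and 4 higher at the unadjusted threshold, as were 40 and 14 of the 272 other bright genes. The part of the brightness in the low values of the subunits was not tested. The standard error grew with brightness too, from a median of 0.09 in the dimmest class to 0.22 in the brightest, and its median over the members was 0.17 against 0.10 over all genes.

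**Figure D2:**
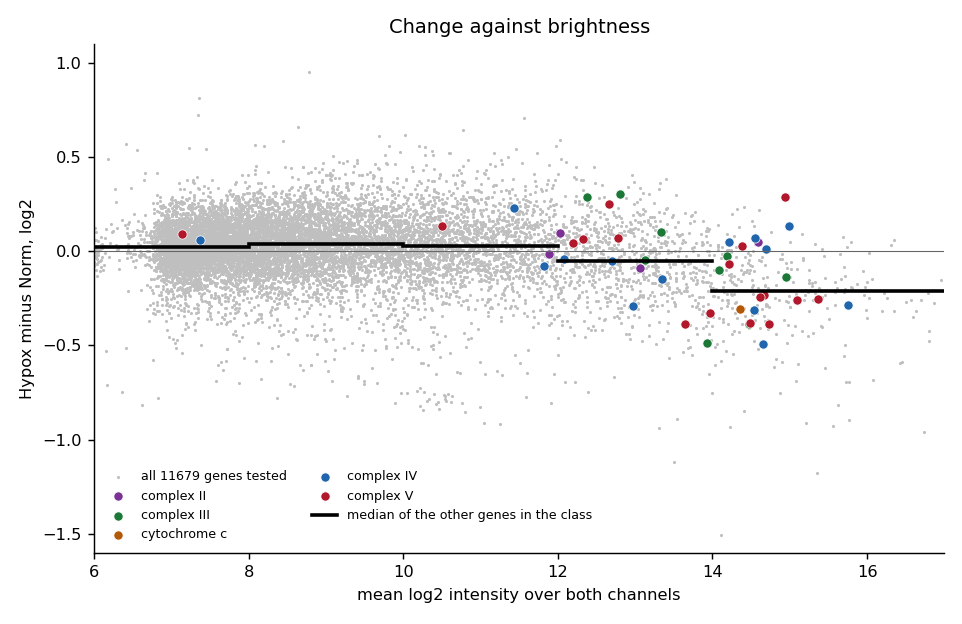
Hypox minus Norm (log2) against the mean log2 intensity of both channels for all 11679 genes tested (grey) and the subunit genes (coloured by complex), with black bars for the median of the other genes in each brightness class. With loess, plotted here, the bar lies at -0.21 above an intensity of 14, and the bright subunits scatter around it.

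Taken complex by complex and with loess, the medians lay close to 0 and far inside the spread between arrays. The median change was 0.02 for the 4 genes of complex II, -0.05 for the 9 of complex III, -0.05 for the 15 of complex IV and -0.07 for the 17 of complex V, against 0.02 for all genes tested. Single arrays turned the sign of 2 of these medians: complex V was at -0.17 without Hypox 12 and 0.04 without Norm 4, and complex II at -0.04 without Hypox 4. Leaving out single arrays gave -0.12 to -0.003 for complex III and -0.08 to -0.04 for complex IV. Complex V was also at -0.15 with a filter at 3 times the background and -0.19 with array weights. With the processed signals, complexes II, III, IV and V were at 0.04, 0.003, 0.04 and 0.06. The medians of all 4 complexes were 0.27 to 0.37 with the authors' values and 0.44 to 0.55 with median centring. The standard deviation of a complex's median between arrays of a group was 0.19 for complex II and 0.26 to 0.28 for the others. On single arrays, the complex V median spanned -0.05 to 0.95 (median 0.27) across Norm arrays and 0.09 to 0.85 (median 0.22) across Hypox arrays. The highest medians of complexes III, IV and V in both groups were all on slide 1. Within slides, the median difference over all 46 genes was below 0 on 3 of 6 slides and ranged from -0.38 to 0.09.

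**Figure D3:**
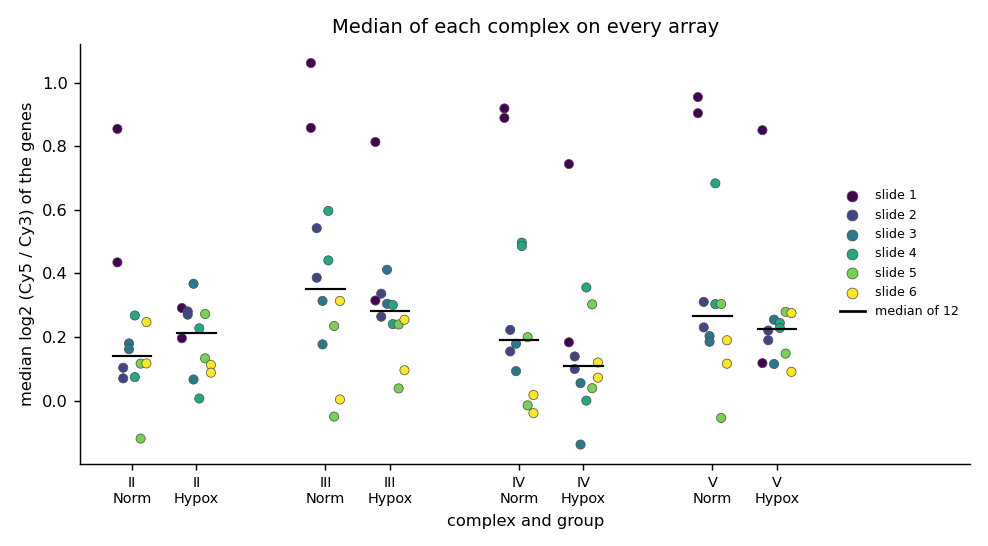
The median log2 ratio of the genes of each complex on every array, by group, with points coloured by slide and a line for the median of 12 arrays. Norm and Hypox overlap in every complex, and the points above 0.8 are arrays of slide 1.

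With loess, complex II showed no gene past either threshold. *Sdha*, the flavoprotein that oxidises succinate, differed by -0.02 ± 0.09 (SE). *Sdhb*, its iron-sulfur partner, differed by 0.05 ± 0.20 at its brightest probe and by 0.34 ± 0.15 at a dimmer one (unadjusted P-value 0.0276, adjusted 0.286), a difference between the probes of -0.30 (95% interval -0.63 to 0.04; 2-sided permutation test, p = 0.0798). With the scanner's processed signals the brightest probe was higher by 0.20 (limma, unadjusted P-value 0.0160). The membrane anchors marked the ends of the range. *Sdhc* spanned -0.15 to 0.75 (median 0.25) across Norm arrays and -0.74 to 2.05 (median 0.34) across Hypox arrays. *Sdhd* spanned -0.25 to 0.96 (median 0.06) across Norm arrays and -0.13 to 0.37 (median 0.01) across Hypox arrays. The wide Hypox range of *Sdhc* came from Hypox 2 at the top and Hypox 12 at the bottom, and its difference of 0.10 ± 0.19 became -0.06 without Hypox 2. These arrays stood apart for the members in general. Hypox 2 was the highest Hypox array for 9 genes and the lowest for 15, Hypox 12 was the highest for 11 and the lowest for 11, and limma's array weights for them were 0.19 and 0.36, the lowest of all.

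In complex III and with loess, the small accessory subunits lay below 0 and both core proteins above it. The accessory genes were also brighter, with mean log2 intensities of 13.9 to 14.9, against 12.8 and 13.3 for the core proteins. *Uqcrb*, which sits against cytochrome *b*, spanned -0.05 to 1.80 (median 0.62) across Norm arrays and -0.01 to 0.95 (median 0.14) across Hypox arrays. Low values were shared by both groups, and high values were mostly found in Norm: 10 of 12 Hypox arrays were below the Norm median, and none was below the lowest Norm array. The difference was -0.49 ± 0.18 (limma, unadjusted P-value 0.0113, adjusted 0.208), and it was below 0 on 6 of 6 slides (-0.76 to -0.11). *Uqcrh*, the hinge protein between cytochrome *c*1 and cytochrome *c*, spanned -0.06 to 1.59 (median 0.77) across Norm arrays and 0.10 to 0.97 (median 0.26) across Hypox arrays. Here 11 of 12 Hypox arrays were below the Norm median, with the groups overlapping over the whole Hypox range. The difference was -0.38 ± 0.14 (unadjusted P-value 0.0123, adjusted 0.210), lower on 5 of 6 slides. It was -0.11 with the processed signals and -0.19 with Cy5 alone, and passed in neither (limma, unadjusted P-values 0.385 and 0.225).

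With loess, the other accessory subunits were also below 0, without passing the test: *Uqcrq* by -0.14 ± 0.22, *Uqcr11* by -0.10 ± 0.16 and *Uqcr10* by -0.02 ± 0.21. The sign of *Uqcr10* rests on its brightest probe, since its other probes gave -0.18 and 0.22 (2-sided permutation test between them, p = 0.0185, adjusted 0.407). With Cy5 alone, *Uqcrq*, *Uqcr11* and *Uqcr10* were above 0, at 0.09, 0.02 and 0.10. With the processed signals they were at -0.02, 0.003 and -0.03. *Uqcrc1*, a core protein, spanned -0.69 to 0.58 (median -0.08) across Norm arrays and -0.40 to 1.71 (median 0.12) across Hypox arrays. Its highest value was on Hypox 2, and the difference of 0.30 ± 0.19 (unadjusted P-value 0.117) was 0.18 to 0.37 when any single array was left out. With Cy5 alone it was 0.33 (limma, unadjusted P-value 0.0318). *Uqcrc2*, the other core protein, differed by 0.10 ± 0.09. Of the catalytic subunits, *Cyc1*, the cytochrome *c*1 gene, spanned -1.22 to 0.11 across Norm arrays and -0.66 to 1.82 across Hypox arrays and differed by 0.29 ± 0.20, with its top value on Hypox 12. Without that array the difference was 0.10. The Rieske protein gene *Uqcrfs1* differed by -0.05 ± 0.10. *Cycs*, the carrier between complexes III and IV, spanned 0.05 to 1.67 (median 1.08) across Norm arrays and -0.02 to 1.47 (median 0.63) across 11 Hypox arrays. Its difference of -0.31 ± 0.20 did not pass the test (unadjusted P-value 0.142) but was below 0 on 6 of 6 slides, and with the slide as a block it was -0.36 with an unadjusted P-value of 0.00572. Its second measured probe gave -0.16 ± 0.12.

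The probes of *Uqcrb* and *Uqcrh* show what the array read. Some of these short transcripts carry several probes that overlap by 30 or more of their 60 bases, and some of those differ at single bases. Stretches of 30 bases around the differences are printed for the pairs that bear on the calls, with the differing bases in capitals and positions counted from the first base shown. For *Uqcrb* (array coordinates in build mm9, chr13:67001665-67001724 and chr13:67001691-67001750) the difference tokens are C2T and A22G.
Uqcrb probe 1: tCgggaaagaaaggagagagaAgagtgggc
Uqcrb probe 2: tTgggaaagaaaggagagagaGgagtgggc
For *Uqcrh* (chr4:115739571-115739630 and chr4:115739564-115739623) it is G12A.
Uqcrh probe 1: ctcttctgtgtGactagcagtgacttcatc
Uqcrh probe 2: ctcttctgtgtAactagcagtgacttcatc
All 3 *Uqcrb* probes were lower in Hypox, by -0.49, -0.39 and -0.33 (unadjusted P-values 0.0113, 0.0182 and 0.0343). The *Uqcrb* pair printed above gave the latter 2 values and shares 34 bases. The probes of the first 2 values share 49 bases without a difference and correlated at 0.96 over the 24 arrays. These probes are therefore not independent readings. The *Uqcrh* probes differed: -0.38 for the first and -0.10 ± 0.23 (unadjusted P-value 0.674) for the second, which shares 53 bases with it. The difference between them did not pass the test (-0.29, 95% interval -0.71 to 0.14; 2-sided permutation test, p = 0.184), and their values correlated at 0.54 over the 24 arrays.

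Over the 20 genes with more than 1 measured probe, all probes were lower for 10, all higher for 5 and of both signs for 5. Of 44 probe pairs within a gene, 16 overlapped, with a median correlation of 0.72 across arrays, and the 28 others had 0.55. The change differed between the probes of 3 pairs at an unadjusted p under 0.05 and of 0 after adjustment over the 44 pairs (2-sided permutation test over arrays, 100000 relabelings). The clearest was *Atp5j2*, with -0.38 at the brightest probe and 0.12 at the other (p = 0.0135, adjusted 0.407). *Atp5l*, which encodes the g subunit of ATP synthase, had 6 probes, of which 5 each overlap another with 2 to 4 differing bases, as in this stretch that starts at the first base of the brightest (C5A and G22A).
Atp5l probe 1: tgttCttggaccatgtgtaacGggactgct
Atp5l probe 2: tgttAttggaccatgtgtaacAggactgct
All 6 were below 0, from -0.38 to -0.08, and none passed the test. Of the 3 *Atp5k* probes, 2 are placed on chromosome Y by the array's annotation and 1 on chromosome 5, and 1 of 2 *Cox5b* probes is placed on chromosome 15 and the other on chromosome 1, so that reads of near-identical copies cannot be told apart for these genes.

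In complex IV, *Cox6c* and *Cox6b1* passed the unadjusted test in opposite directions. *Cox6c*, a small membrane subunit, spanned 0.04 to 1.71 (median 0.56) across Norm arrays and -0.16 to 0.81 (median 0.08) across Hypox arrays. Of the Hypox arrays, 10 were below the Norm median and 5 below every Norm array. The difference was -0.49 ± 0.19 (limma, unadjusted P-value 0.0148, adjusted 0.224), below 0 on 6 of 6 slides (-0.87 to -0.14). It was -0.28 with the processed signals and -0.26 with Cy5 alone, and passed in neither (limma, unadjusted P-values 0.0681 and 0.121). *Cox6b1*, which joins the complexes of a dimer on the side of the intermembrane space, spanned -1.01 to -0.14 (median -0.60) across Norm arrays and -0.54 to -0.14 (median -0.30) across Hypox arrays. All 12 Hypox arrays were above the Norm median, although none was above the highest Norm array. The difference was 0.23 ± 0.08 (unadjusted P-value 0.00561, adjusted 0.155), above 0 on 6 of 6 slides (0.07 to 0.36). At 53.3 times the background it was one of the less bright subunits. The annotated positions of its probe of 60 bases (build mm9, chromosome 7, from base 31409575 to 31411071) span over a kilobase of genome. The probes of *Atp5c1*, *Cox5a*, *Cox7a1* and *Uqcrc1* also span more than 60 bases of genome.

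**Figure D4:**
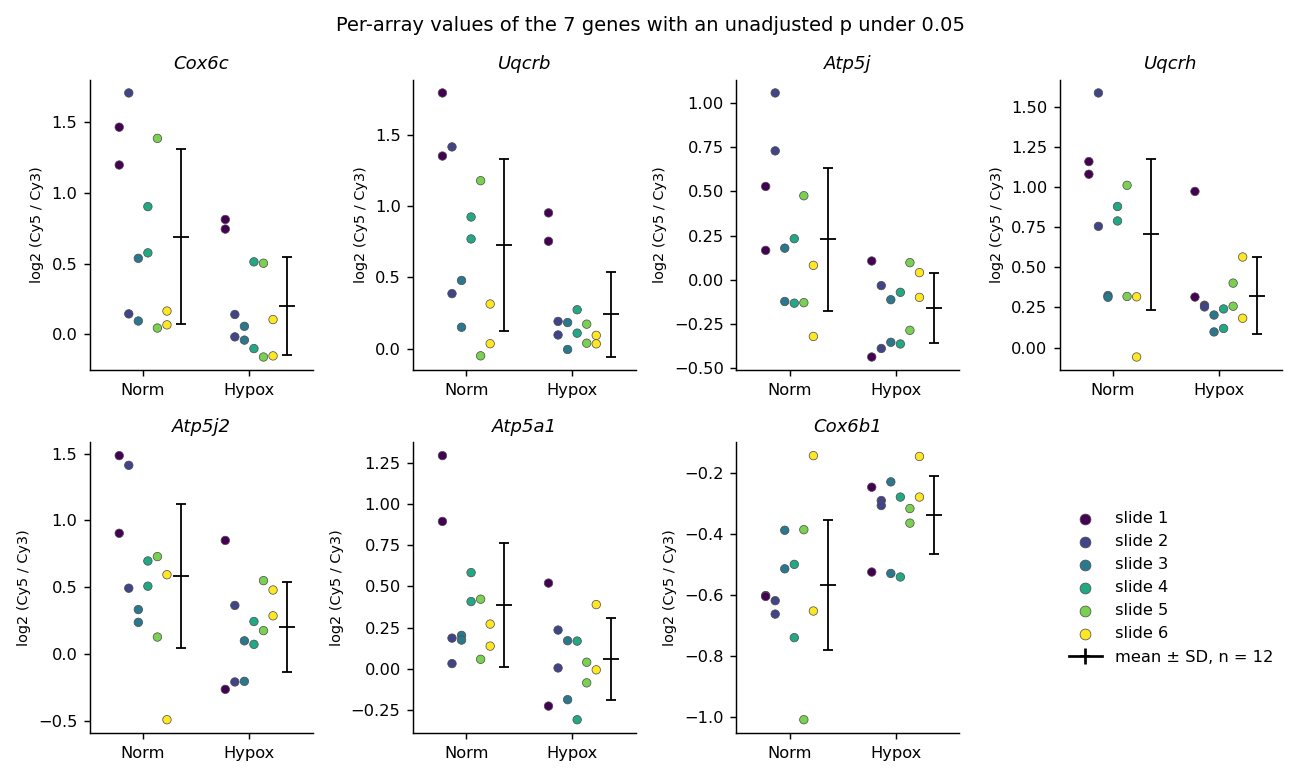
The log2 ratio of Cy5 over Cy3 on every array for the 7 genes with an unadjusted P-value under 0.05, with points coloured by slide and black marks for the mean ± SD of 12 arrays. For the 6 genes lower in Hypox the highest values are Norm arrays, and Norm and Hypox overlap in all 7 panels.

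The spread of the called genes was wider in Norm, with standard deviations of 0.21 to 0.62, than in Hypox, with 0.13 to 0.35. Over all members, the standard deviation was larger in Norm for 33 genes and in Hypox for 13. Among the other genes of complex IV, *Cox7b* (-0.31 ± 0.16, unadjusted P-value 0.0683) and *Cox7c* (-0.15 ± 0.14) lay below 0, and *Cox5a* (0.01 ± 0.23) and *Cox5b* (0.05 ± 0.19) near it. *Cox7a2*, *Cox7b* and *Cox8b* were lower at the unadjusted threshold with the slide as a block. *Cox7a2l*, a factor that joins complexes III and IV and is not itself a subunit of complex IV in the usual sense, differed by -0.05 ± 0.08 at its brightest probe and by 0.07 and 0.19 at its other probes.

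The isoform pairs were compared within each array, over 7 pairs. An equal shift of all genes on an array cancels there, but a shift that differs with brightness does not. *Cox4i2* stood at 2.77 times the background and *Cox4i1* at 501. *Cox6a1* stood at 81.7 and *Cox6a2* at 1239, and *Cox8a* at 84.6 and *Cox8b* at 809. *Cox4i2*, the form of subunit 4 known for its link to low oxygen, spanned -0.54 to 0.04 (median -0.12) across Norm arrays and -0.29 to 0.05 (median -0.09) across Hypox arrays, and was well above background on 8 and 9 arrays. *Cox4i1*, the common form, spanned -0.49 to 1.04 (median -0.14) across Norm arrays and -0.45 to 1.03 (median 0.00) across Hypox arrays. The changes of 0.06 and 0.07 differed by -0.01 (95% interval -0.39 to 0.37). *Cox4i1* was higher by 0.23 with the processed signals and with Cy5 alone (limma, unadjusted P-values 0.0186 and 0.0481), and the difference of the pair was -0.54 with median centring and -0.61 with the authors' values (2-sided permutation tests, p = 0.298 and 0.213). *Cox7a2*, the form of most tissues, spanned -0.11 to 1.41 (median 0.54) across Norm arrays and -0.09 to 0.79 (median 0.19) across Hypox arrays. *Cox7a1*, the muscle form, spanned -0.38 to 2.35 (median 0.44) across Norm arrays and 0.18 to 1.99 (median 0.55) across Hypox arrays. It was higher by 0.32 with the processed signals and by 0.38 with Cy5 alone (limma, unadjusted P-values 0.0200 and 0.0370). *Cox7a2* was lower relative to *Cox7a1* in Hypox by -0.43 (95% interval -0.95 to 0.10; 2-sided permutation test, p = 0.108, adjusted over the 7 pairs 0.568), on 5 of 6 slides. The difference was -0.57 with the scanner's processed signals (adjusted p = 0.0240), -0.64 without slide 1, a setting chosen after seeing the data (adjusted p = 0.0403), and -0.31 to -0.60 under the others, none of which passed after adjustment. The unadjusted p was 0.0034 with the processed signals, 0.0127 with median centring, 0.0172 with Cy5 alone and 0.0106 with the authors' values (2-sided permutation tests).

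*Cox6a1* changed by -0.08 and the muscle form *Cox6a2* by -0.28, a difference of 0.21 (-0.59 to 1.01). *Cox6a2* was at -0.10 without Norm 4. *Cox8a* changed by -0.04 and the muscle form *Cox8b* by -0.26, a difference of 0.21 (-0.19 to 0.62). For both pairs the difference was below 0 under the other scalings. For the ring genes, *Atp5g1* (-0.26 ± 0.28), *Atp5g2* (-0.23 ± 0.22) and *Atp5g3* (-0.07 ± 0.20) differed from each other by -0.03, -0.19 and -0.16 in the order *Atp5g1* minus *Atp5g2*, *Atp5g1* minus *Atp5g3* and *Atp5g2* minus *Atp5g3*. Without Norm 4 their own changes were -0.10, -0.09 and 0.05, and *Atp5g1* was at -0.44 without Hypox 12. With the slide as a block, *Atp5g1* and *Atp5g2* were lower at the unadjusted threshold. The second *Atp5g2* probe was at -0.36 ± 0.16 without the block (limma, unadjusted P-value 0.0309, adjusted 0.299). Apart from *Cox7a2* and *Cox7a1* with the processed signals and without slide 1, no pair differed after adjustment under any setting. The intervals were computed with loess only, and each spans 0. *Cox6b2* was not measured and could not be set against *Cox6b1*.

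In ATP synthase, 3 genes were lower at the unadjusted threshold without a block. With the slide as a block, *Atp5b*, *Atp5g1* and *Atp5g2* were lower too. *Atp5j*, the coupling factor of the peripheral stalk, spanned -0.32 to 1.06 (median 0.17) across Norm arrays and -0.44 to 0.11 (median -0.11) across Hypox arrays. All 12 Hypox arrays were below the Norm median, and 4 were below every Norm array. The difference was -0.39 ± 0.12 (limma, unadjusted P-value 0.00419, adjusted 0.143), the smallest P-value of the members, and lower on 5 of 6 slides. It was -0.21 with the processed signals, without passing, and -0.33 with Cy5 alone (limma, unadjusted P-values 0.0901 and 0.0355). *Atp5j2*, the f subunit beside the ring, spanned -0.49 to 1.48 (median 0.55) across Norm arrays and -0.26 to 0.85 (median 0.21) across Hypox arrays and differed by -0.38 ± 0.17 (unadjusted P-value 0.0325). Its unadjusted P-value rose above 0.05, to at most 0.0702, when any one of 6 arrays was dropped (Norm 3, 4 or 11, or Hypox 2, 5 or 12). *Atp5j2* was at -0.11 with the processed signals and -0.20 with Cy5 alone, and passed in neither (limma, unadjusted P-values 0.364 and 0.277). *Atp5a1*, the alpha subunit of the catalytic head, spanned 0.03 to 1.29 (median 0.24) across Norm arrays and -0.31 to 0.52 (median 0.02) across Hypox arrays. Of the Hypox arrays, 6 were below every Norm array, and the difference was -0.33 ± 0.12 (unadjusted P-value 0.0131, adjusted 0.215), lower on 5 of 6 slides. It was -0.09 with the processed signals and -0.17 with Cy5 alone, and passed in neither (limma, unadjusted P-values 0.175 and 0.158). *Atp5b*, its catalytic partner, differed by -0.25 ± 0.24, and by -0.10 without Norm 4.

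Other parts of the enzyme lay on the other side of 0 with loess. The central stalk genes *Atp5c1* (0.04 ± 0.09), *Atp5d* (0.06 ± 0.12) and *Atp5e* (0.29 ± 0.21) were all above it, and so were *Atp5f1* (0.25 ± 0.17), *Atp5o* (0.07 ± 0.12) and *Atp5h* (0.03 ± 0.26) of the peripheral stalk. *Atp5h* was at -0.19 at its other probe and at -0.17 without Hypox 12. *Atp5f1* was at 0.07 at its other probe and at 0.14 without Hypox 2. *Atp5e* spanned -0.44 to 1.45 (median 0.43) across Norm arrays and -0.16 to 2.02 (median 0.59) across Hypox arrays. It was the highest member of complex V, did not pass the test with loess (unadjusted P-value 0.195), and was the single member to pass adjustment with the scanner's processed signals (0.33, adjusted P-value 0.0358). With loess, the membrane genes *Atp5l* (-0.38 ± 0.21) and *Atp5k* (-0.24 ± 0.16) were below 0. With the processed signals, *Atp5k* was at 0.06, *Atp5b* at 0.008, *Atp5g1* at 0.01 and *Atp5g3* at 0.13, all above 0. In that scaling *Atp5l* and *Atp5g2* were below it, at -0.17 and -0.05. *Atp5s* (0.09 ± 0.10) and *Atp5sl* (0.13 ± 0.09), named for the enzyme but not known as its subunits, were also above 0, against a median of 0.02 for all genes, and were among the dimmer members.

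The sign of a subunit's change depended on the scaling of the arrays, with 17 of the 46 genes on one side of 0 under all 5 scalings compared. The median change of the 46 genes was -0.05 with loess, 0.02 with the scanner's processed signals, 0.05 from Cy5 without the reference, 0.30 with the authors' normalized values and 0.48 when each array was centred on its median. The last 2 moved the median of all genes as well, to 0.08 and 0.25, and left 0 members past the unadjusted threshold, where 5.80% and 0.411% of all genes passed. Relative to the median of the 46 genes, 16 genes were below it under all 5 scalings, 16 were above it under all 5, and 14 changed sides. A gene's rank among the 46 moved over a median of 8.5 places between scalings. The dim genes moved furthest, *Atp5s* from rank 1 to 37 and *Cox4i2* from 2 to 34, and both were the lowest members with the authors' values. *Uqcrb* lay -0.44 to -0.31 below that median and held rank 1 to 3 from the lowest, and *Cox6c* lay -0.44 to -0.29 from it and held rank 1 to 4. *Atp5j* lay -0.38 to -0.22 from it. At the other end, *Atp5e* lay 0.31 to 0.47 above the median and held rank 44 to 46, *Uqcrc1* lay 0.22 to 0.36 above it, *Cyc1* 0.24 to 0.33 and *Cox7a1* 0.18 to 0.36. With loess, the changes of *Atp5e*, *Uqcrc1* and *Cox7a1* were 0.17, 0.18 and 0.02 without Hypox 2. *Cox6b1* lay 0.16 to 0.28 above it. All 6 genes called lower were below that median under all 5 scalings. They were chosen by their loess values, and the other scalings use the same arrays, so this is no separate evidence.

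**Figure D5:**
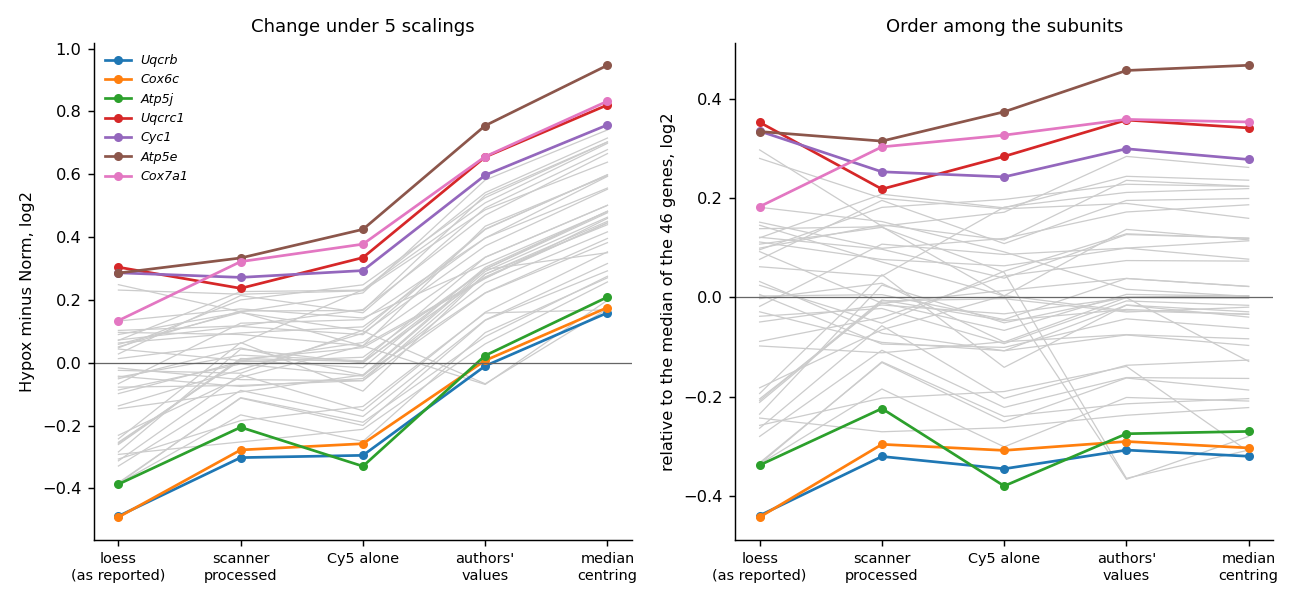
Change in Hypox under 5 scalings of the arrays for the 46 genes (grey, 7 named genes coloured), as log2 change (left) and as log2 change minus the median of the 46 genes (right). On the left all 46 lines end higher at median centring than at loess, and on the right *Uqcrb*, *Cox6c* and *Atp5j* stay below 0 and *Atp5e*, *Uqcrc1*, *Cyc1* and *Cox7a1* above it.

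The levels of the subunits moved together from mouse to mouse, as bright genes in general did. With the group means removed, the median pairwise correlation over 24 arrays was 0.29 among the 46 members, 0.27 among 1005 other genes with a mean log2 intensity over 12 and 0.00 among all genes. With the slide means removed too, it was 0.15, 0.11 and 0.00. By complex, and with group and slide means removed, it was 0.23 within complex III, 0.16 within complex IV, 0.07 within complex V and 0.01 within complex II, and 0.20 between complexes III and IV. These correlations share arrays, dyes and brightness, and describe these samples only.

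Genes that help to build or regulate these complexes were listed as well. Of 46 listed, 39 were measured, 28 of them above 0 and 11 below, with a median change of 0.09, where 56.9% of all genes were above 0 and their median was 0.02, and the unadjusted threshold was passed by 5 on the higher side and 2 on the lower (0 after adjustment). The higher share of 5 in 39 is to be read against 7.44% of all genes and the lower against 6.48%. *Hccs*, which attaches heme to cytochromes *c* and *c*1, spanned -0.20 to 1.46 (median 0.41) across Norm arrays and -0.62 to 0.71 (median -0.17) across Hypox arrays. It was lower by -0.49 ± 0.16 (limma, unadjusted P-value 0.00566, adjusted 0.155) and on 6 of 6 slides. Its adjusted P-value was 0.0397 with the processed signals, 0.0180 with the slide as a block and 0.0269 with array weights, and 0.931 with the deposited values. *Atp5mpl*, a small ATP synthase protein read on the array as 2010107E04Rik, was lower by -0.39 ± 0.16 (unadjusted P-value 0.0234), also on 6 of 6 slides. *Coa3*, read as Ccdc56, which takes part in the early assembly of complex IV, was higher by 0.26 ± 0.10 (unadjusted P-value 0.0147) on 6 of 6 slides. Its adjusted P-value was 0.0303 with the processed signals and 0.0380 with array weights, and its unadjusted P-value was 0.184 with median centring and 0.0936 with the deposited values. *Ndufa4l2*, known as a target of hypoxia signaling, was higher by 0.26 ± 0.11 (unadjusted P-value 0.0246) on 5 of 6 slides, but did not pass under any of the other 4 scalings (0.0730 to 0.139). *Tmem70*, an assembly factor of ATP synthase, was higher by 0.19 ± 0.08 (unadjusted P-value 0.0329), and passed in 17 of 24 fits without 1 array and under 1 of the other 4 scalings, the processed signals. The other higher genes were *Cox19* (0.32 ± 0.15) and *Coa4* (0.25 ± 0.11). *Hccs* and *Atp5mpl* changed sign when each array was centred on its median, at 0.11 and 0.24.

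No fiber type marker passed adjustment. All 7 slow fiber markers had estimates above 0, with a median of 0.38 and 2 past the unadjusted threshold (*Tnni1* and *Tnnc1*), and the mean log2 ratio of the 7 spanned -2.11 to 0.54 across Norm arrays and -0.30 to 0.18 across Hypox arrays. Of 8 fast fiber markers, 7 were below 0 (median -0.27) without passing the test, and *Mylpf* was the exception and the single one to pass the unadjusted threshold, and their mean spanned 0.06 to 2.59 across Norm arrays and 0.22 to 2.34 across Hypox arrays. The 3 measured adipocyte markers were below 0, 2 of them past the unadjusted threshold, with means of -0.95 to 1.22 in Norm and -0.96 to -0.18 in Hypox, and *Ucp1* of brown adipocytes was well above background on 0 arrays. Among further markers, *Cdh5* of endothelium was higher at the unadjusted threshold (0.38) and the other measured endothelial marker, *Kdr*, was at -0.15 without passing, and 0 of 3 red blood cell and 0 of 2 measured macrophage markers passed it. The part of fiber type and of adipocytes in the values of the subunits was not tested.

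Promoters of the members were read from RefSeq's windows (build GRCm38.p6), which matched 38 of the 49 genes in 42 windows, each cut here to the 250 bases before the start. *Atp5a1*, *Cox4i1*, *Cox4i2*, *Cox6a2*, *Cox6c*, *Cox8c*, *Cyc1*, *Sdhc*, *Uqcrb*, *Uqcrc2* and *Uqcrq* had no entry. Each motif was searched on both strands, without regard to overlap with another motif. The letters CCGGAAG, read by ETS factors such as GABP, stood in 21.4% of the member windows and 6.91% of all 32851 windows. The NRF1 palindrome, GCGCA followed directly by TGCGC, stood in 7.14% against 0.782%, in *Atp5g2*, *Atp5k* and *Cox6a1*. The letters TCAAGGTCA of estrogen-related receptors stood in 1 of the 42 member windows (2.38%), that of *Atp5g3*, against 0.387%. ACGTG, the core of a hypoxia response element, stood in 33.3% against 16.6%, and CCAAT in 54.8% against 33.8%. The windows compared were not matched in base content, and the differences in share were not tested. GABP and NRF1 are known as regulators of respiratory chain genes. The windows of *Uqcrh* and *Cox6b1* are shown because these genes were called in opposite directions and both hold the ETS letters, at 10 and 28 bases before the start, and that of *Cox6a1* because it holds both motifs. Capitals mark CCGGAAG or its reverse complement CTTCCGG and, in *Cox6a1*, the NRF1 palindrome, and all 3 genes lie on the minus strand.
Uqcrh (chr4:116075071-116075320): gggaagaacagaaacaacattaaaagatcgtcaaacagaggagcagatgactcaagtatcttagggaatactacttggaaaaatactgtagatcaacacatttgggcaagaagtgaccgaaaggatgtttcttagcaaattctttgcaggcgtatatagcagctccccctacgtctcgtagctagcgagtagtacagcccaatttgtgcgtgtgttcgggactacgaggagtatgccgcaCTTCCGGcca
Cox6b1 (chr7:30626115-30626364): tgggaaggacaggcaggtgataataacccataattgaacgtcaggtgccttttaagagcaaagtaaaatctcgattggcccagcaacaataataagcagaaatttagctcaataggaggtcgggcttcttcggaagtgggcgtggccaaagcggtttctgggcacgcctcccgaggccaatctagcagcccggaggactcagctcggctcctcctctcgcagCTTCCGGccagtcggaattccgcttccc
Cox6a1 (chr5:115348959-115349208): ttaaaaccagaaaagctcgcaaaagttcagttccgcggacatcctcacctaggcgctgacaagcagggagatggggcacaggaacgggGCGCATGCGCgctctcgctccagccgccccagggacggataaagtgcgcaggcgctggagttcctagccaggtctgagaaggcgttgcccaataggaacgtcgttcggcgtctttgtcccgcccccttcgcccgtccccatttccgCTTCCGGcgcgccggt
A match of letters is a description of the window and not a measured site.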

How the data were processed

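For each array the authors deposited spot intensity values (signal and local background in both dyes) written by Agilent Feature Extraction 10.7.3.1 (per the submitters' processing notes), and a table of log2 values that the authors normalized with other software, which correlated with log2 Cy5 at 0.97 to 1.00 on each array and whose columns all have the median 6.58; its use of the Cy3 channel stays unknown. Where a Hypox sample's dye label disagreed with its description, the description was followed. Background was corrected with normexp (offset 50), ratios were normalized by loess within arrays, control spots and 7260 flagged readings were left out, and spots of a probe were averaged. Probes over 2 times the background with at most 4 missing arrays were kept (14312 of 55681). Differences between Hypox and Norm were tested with limma over all kept probes, with Benjamini-Hochberg adjustment, and the brightest probe stood for its gene. P-values measure the spread between 12 mice a group, each on a single array, so labelling, hybridisation and slide are part of it. Signal over background limits dim genes. Isoform and probe pairs were compared by permutation of the arrays (100000 relabelings).

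The genes, lists, pairs and motifs were chosen with earlier results of these data known, and the comparison of probes of a gene after their values were seen. Named are the members past the unadjusted threshold, the highest and lowest of each complex, the isoforms and *Cycs*, members with probes of both signs of which 1 passed, and up to 3 other pathway genes in each direction; further genes were chosen after their values were seen. Alternatives were processed signals, median centring, Cy5 alone, deposited values, the mean of a gene's probes, other filters, slide or replicate number as a block, array weights, the methods' t-test and leaving out each array. R 4.3.3 with limma 3.58.1 and Python 3.11.15 were used. In simulated data, limma found 96% of 200 probes changed by 0.5 among 14312, and 5.08% of unchanged probes had an unadjusted P-value under 0.05. These probes came from the whole array, where the median standard error was 0.10, and the share does not hold for the subunit genes, where it was 0.17.

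A result on 1 marker is not reported here.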

Additional observations from a re-analysis of the deposited data

How the results depend on the processing

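The counts of 6 lower, 1 higher and 0 adjusted depended on the scaling. They were 1, 5 and 1 with the processed signals (14% of all genes unadjusted and 207 genes adjusted), 2 and 5 with Cy5 alone (9.48%), and 0 and 0 unadjusted with the deposited values (5.80%) and with median centring (0.411%). The lower gene was *Uqcrb* with the processed signals, and the lower genes were *Uqcrb* and *Atp5j* with Cy5 alone. With the slide block 13 were lower (7.69% of all genes lower), and with array weights 10 were lower and 3 (*Cox6c*, *Cox7a2* and *Uqcrb*) passed adjustment, where 20.5% of all genes passed unadjusted (9.36% lower) and 553 adjusted. Without slide 1, a setting chosen after seeing the data, 5 were lower and 3 higher (6.87% and 9.03% of all genes). Leaving out single arrays gave 5 to 9 lower, 1 to 2 higher and 0 to 1 adjusted, where 12% to 15.8% of all genes passed unadjusted. The filters and the methods' t-test left 6 lower and 1 higher, and the mean of a gene's probes left 4 lower, without *Uqcrh* and *Atp5j2*, and 1 higher.

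The medians of complexes II, III, IV and V were 0.53, 0.55, 0.44 and 0.48 with median centring and 0.36, 0.37, 0.27 and 0.30 with the deposited values. With median centring, *Atp5a1* was at 0.32, *Atp5j* 0.21, *Atp5j2* 0.29, *Cox6c* 0.18, *Uqcrb* 0.16, *Uqcrh* 0.28, *Hccs* 0.11 and *Atp5mpl* 0.24. With the deposited values, *Atp5a1* was at 0.14, *Atp5j* 0.023, *Atp5j2* 0.14, *Cox6c* 0.0071, *Uqcrh* 0.083 and *Atp5mpl* 0.071. The cause was not tested.

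*Cox7a2* minus *Cox7a1* was -0.57 with the processed signals (adjusted p = 0.0240) and -0.64 without slide 1 (adjusted p = 0.0403). Pairs that passed no test changed sign. *Cox6a1* minus *Cox6a2* was -0.12 with the processed signals, -0.10 with median centring, -0.056 with Cy5 alone and -0.076 with the deposited values. *Cox8a* minus *Cox8b* was -0.089, -0.028, -0.054 and -0.019 in the same order. *Atp5g1* minus *Atp5g2* was 0.058 with the processed signals, 0.014 with median centring and 0.15 with the mean of a gene's probes, and *Cox4i2* minus *Cox4i1* was 0.013 with array weights, -0.54 with median centring and -0.61 with the deposited values. Leaving out single arrays gave -0.10 to 0.071 for *Cox4i2* minus *Cox4i1*, -0.0098 to 0.35 for *Cox6a1* minus *Cox6a2*, and -0.14 to 0.017 for *Atp5g1* minus *Atp5g2*.

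Same-numbered Norm and Hypox arrays deviated together with correlations of -0.22 to 0.54, over 0.1 in 3 of 12 pairs, so the numbers were not taken as pairs. With the replicate number as a block, 7 members were lower and 1 higher, 0 passed adjustment, the medians of complexes II, III, IV and V stayed at 0.02, -0.05, -0.05 and -0.07, and the smallest p of an isoform pair was 0.102.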
